A study of Mus musculus with 2 samples.

Results

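Endothelial cells of the pressure-overloaded mouse heart that carried transcripts of Nts, the gene of the peptide neurotensin, are described here and set against endothelial cells in which no Nts transcript was counted. The series holds 1 pooled suspension of heart cells other than cardiomyocytes, from 4 Nts KO mice and 3 control mice, 7 days after TAC (transverse aortic constriction, a narrowing of the aorta that loads the left ventricle). The labels give an age of 6 to 8 weeks and TAC surgery for the pool. Its genotype entry reads WT, while its title and the design text name both genotypes. The Nts KO allele, and any Cre driver, are not described in the sources used here. Each mouse had its own hashtag antibody, and live cells of all mice were sorted into 1 tube and run on 1 lane. The hashtag library was not analysed here, so nothing ties a cell to a mouse, no genotype was inferred, and a cell without Nts in a control heart cannot be told apart from one in a knockout heart.

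A deposited barcode was taken as an endothelial cell when it had at least 3 UMIs of Pecam1, Cdh5 and Egfl7 together and none of Pdgfra or Csf1r. A UMI is a molecular tag that stands for 1 captured transcript. The rule kept 504 of 9369 barcodes. Of these, 88 cells had at least 3 Nts UMIs and are called carriers, 44 had 1 or 2, and 372 had none and are called Nts-free. Carriers were 17.5% of the gated cells, with an exact 95% binomial interval of 14.2 to 21.1%. The median depth was 5603 UMIs per cell in carriers and 4744 in Nts-free cells. The median share of mitochondrial UMIs was 0.738% in carriers and 1.01% in Nts-free cells. Because there is 1 library, no difference has a replicate check and no test was run. Intervals cover counting error only, and sums can rest on a few cells, which are named where they do.

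Neurotensin is a short secreted peptide, cut from a precursor that also holds neuromedin N, and is best known from neurons and from endocrine cells of the gut. It acts on the receptors encoded by Ntsr1 and Ntsr2 and binds sortilin, the product of Sort1. The endothelium of the heart has several kinds of cell: capillary cells that take up fatty acids, arterial and venous cells, lymphatic cells that drain fluid, and the endocardium that lines the chambers. Each kind is recognised by marker genes, and the question here is which of these genes the carriers hold.

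Nts (ENSMUSG00000019890) lies on chromosome 10 at chr10:102481756-102490486 on the minus strand of GRCm38, between Mgat4c and Rassf9. Its upstream region is shown because in the rat gene this region holds an AP-1 element, bound by Fos and Jun proteins, whose transcripts are described further on. The stretch runs from -250 to -71 relative to the RefSeq start, at chr10:102490489-102490668 of GRCm38.p6 on the minus strand, with a match to the AP-1 motif in capitals.
Nts upstream region: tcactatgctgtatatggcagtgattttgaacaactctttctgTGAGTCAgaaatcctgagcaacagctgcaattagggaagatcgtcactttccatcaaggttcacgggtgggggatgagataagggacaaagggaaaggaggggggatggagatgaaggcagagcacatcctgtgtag
The match starts at position -207. The motif searched was TGANTCA on both strands of the 300 bases around the start, and it was found in 7.81% of 32851 RefSeq promoters of that length. The cAMP response motif TGACGTCA (in 1.79% of promoters) and the TATA motif TATAAA (in 13.6%) had no match in these letters of the window.

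Nts was uneven among the carriers. They held 1600 of the 1860 Nts UMIs in the matrix (86.0%), and a carrier had between 3 and 139 of them, with a median of 9. The interquartile range was 4.75 to 22. At the edge of the rule, 14 carriers had exactly 3 UMIs and 8 had 4, while 18 cells just outside it had 2 and 26 had 1. The 39 carriers with 10 or more Nts UMIs held 83.2% of the carriers' Nts. A group of 5 cells, with 139, 113, 97, 70 and 66 UMIs, held 30.3% of it. Summed over cells, Nts stood at 2916 CPM (summed UMIs scaled to a common total) in carriers and at 580 CPM in all gated cells (exact Poisson interval 552 to 609).

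Nts was near 0 in fibroblasts and macrophages. The 2 gates used here left out any cell with a UMI of Pecam1, Cdh5 or Egfl7. Among 1669 such cells with at least 3 Pdgfra UMIs, a fibroblast gate, 12 had an Nts UMI. None had more than 1, for a level of 0.776 CPM. The macrophage gate held 1590 such cells with at least 3 Csf1r UMIs and no Pdgfra UMI. Of these, 9 had an Nts UMI, again 1 each, for 0.825 CPM. Barcodes that had Nts beside both endothelial UMIs and Pdgfra or Csf1r are therefore in neither gate and are described at the end. No cell of either gate had 3 Nts UMIs, which allows a share of such cells of up to 0.180% in the fibroblast gate and 0.189% in the macrophage gate.

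Carriers were found in lymphatic, endocardial and capillary cells alike, in unequal shares. The gated cells were first split by marker UMIs in a fixed order: lymphatic with at least 2 UMIs of Prox1 and Mmrn1 together, then endocardial with at least 2 of Npr3, then capillary with at least 2 of Gpihbp1, then the rest. The lymphatic stratum held 25 carriers among 82 cells, or 30.5% (20.8 to 41.6%). The endocardial stratum held 12 among 118, or 10.2% (5.37 to 17.1%). The capillary stratum held 18 among 157, or 11.5% (6.94 to 17.5%). The cells that met none of the 3 conditions held 33 carriers among 147, or 22.4% (16.0 to 30.1%). The lymphatic interval lies above those of the endocardial and capillary strata, which overlap each other.

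The Nts level was also highest in the lymphatic stratum. It was 1282 CPM in the lymphatic stratum, 733 CPM in the rest, 284 CPM in the endocardial stratum and 257 CPM in the capillary stratum. The intervals of the last 2 strata, 248 to 325 CPM and 222 to 295 CPM, overlap. The lymphatic stratum held 618 Nts UMIs, of which 113 and 70 came from 2 carriers that were called doublets by Scrublet. The rest held 633, of which 139 came from 1 cell. The strata are not clean: 48 gated cells, 11 of them carriers, met more than 1 condition. In 95 gated cells, 24 of them carriers, the count for at least 1 condition was exactly 1 UMI. Of the 33 carriers in the rest, 19 had no UMI of Prox1, Mmrn1, Npr3 or Gpihbp1.

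To place carriers without any single marker, the 504 cells were clustered on 2000 variable genes with Nts left out, which gave 11 clusters. A cluster is numbered by size and given by its leading genes. Cluster 2, led by Ccl21a, Mmrn1, Reln and Pdpn, is lymphatic-like, and 19 of its 65 cells were carriers (29.2%, interval 18.6 to 41.8%). This cluster was made of the same cells under the 5 other clusterings tried. Its carriers had a median of 16 Nts UMIs. Cluster 3, led by Ackr1, S100a9, S100a8 and Selp, held 24 carriers among 64 cells (37.5%, 25.7 to 50.5%). All 6 venous markers were detected in it, but 2 neutrophil genes stand among its leading genes, so it is given no name. Under the other clusterings, the cluster that overlapped it most had a share of 31.0 to 52.1%. The 31.0% is that of a cluster of 84 cells, which was also the match of cluster 8.

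The cells with Npr3, the clearance receptor for natriuretic peptides, fell largely into a cluster with carriers and a cluster with none. Cluster 1, led by H19, Ahsg and A2m, had Npr3 in 85 of 94 cells and held 18 carriers (19.1%, 11.8 to 28.6%). That share is near the 17.5% of all gated cells. Cluster 7, led by Ephx2, Edn1 and Nrg1, had Npr3 in 43 of 48 cells and held 0 carriers (0 to 7.40%). The median depth was 4615 UMIs per cell in cluster 1 and 6542.5 in cluster 7. The 12 carriers of the endocardial stratum were all in cluster 1, and the 39 endocardial-stratum cells of cluster 7 held none. The cluster that overlapped cluster 7 most had 0 carriers under each of the 5 other clusterings.

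Carriers were few in cluster 4 and cluster 6. Cluster 4, capillary-like and led by Car4, Timp4 and Gpihbp1, held 2 carriers among 59 cells (3.39%, 0.413 to 11.7%). Cluster 5, led by Cxcl9 and Aplnr and with 11 of 12 capillary markers detected, held 8 among 55 (14.5%, 6.50 to 26.7%). These intervals overlap. Under the other clusterings, the cluster that overlapped cluster 4 most had a share of 0 to 8.77%. The 8.77% is that of a cluster of 114 cells, which was also the match of cluster 5. Cluster 6, arterial-like and led by Alpl, Sema3g and Gja5, held 1 carrier among 50 cells (2.00%, 0.0506 to 10.6%), with 3 Nts UMIs.

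The smaller clusters also held carriers. Cluster 10, led by Hapln1, Inhba and Wnt9b, held 8 carriers among 18 cells (44.4%, 21.5 to 69.2%). Detected in it were 4 of 6 endocardial markers (Nfatc1, Cytl1, Hapln1 and Cdh11) and 3 of 8 fibroblast markers (Dcn, Lum and Mfap5). By the marker strata, 0 of its cells were endocardial, 5 were lymphatic and 13 were in the rest, so the endocardial stratum does not cover it. Cluster 9, led by the division genes Ube2c and Birc5, held 5 among 20 (25%, 8.66 to 49.1%). Cluster 8, led by the mast cell genes Cma1 and Mcpt4, had 8 of 23 cells called as doublets by Scrublet. Of the Cma1 UMIs in Nts-free cells, 99.4% were in 1 cell. Detected in cluster 8 were 7 of 7 lymphocyte markers, 5 of 8 macrophage markers and 2 of 10 general endothelial markers. Its 2 carriers, with 113 and 70 Nts UMIs, were both called doublets and were the only carriers so called. Cluster 11, led by Col1a1, held 1 carrier among 8 cells.

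**Figure D1:**
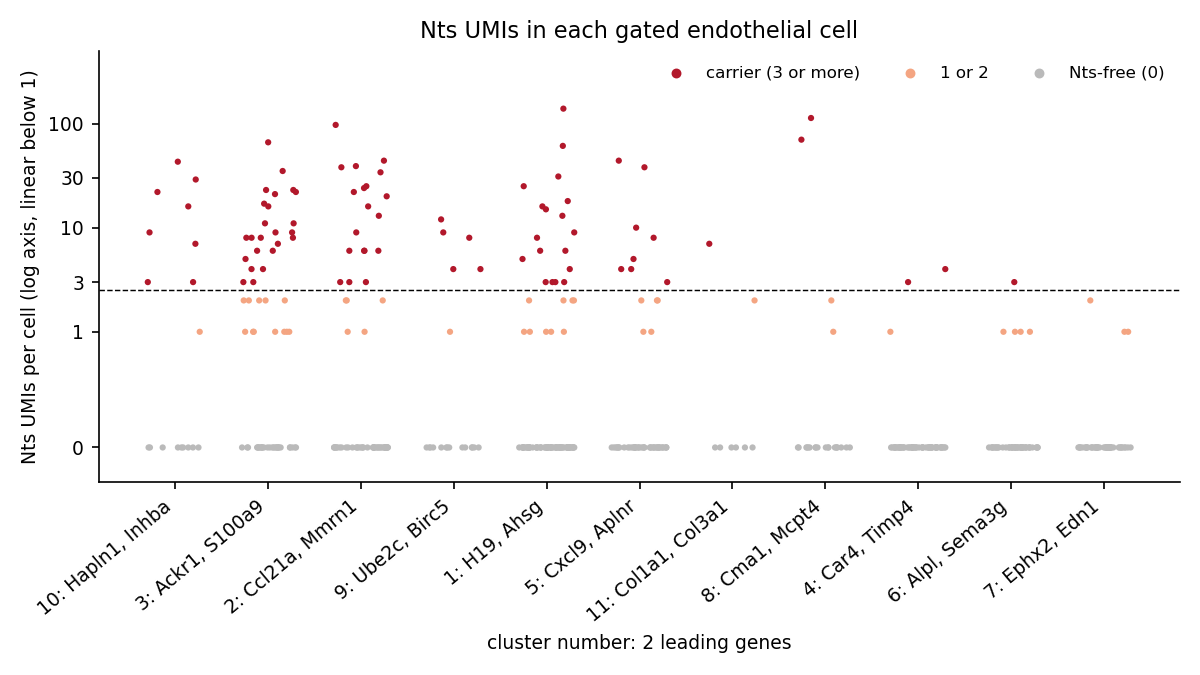
Nts UMIs in each of the 504 gated endothelial cells (vertical axis, logarithmic above 1), by cluster, ordered by share of carriers. Each point is a cell, jittered sideways, and the dashed line separates carriers from cells with 1 or 2 UMIs; cluster 7, at the right, has no carrier, and the highest cell, at 139 UMIs, is in cluster 1.

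**Figure D2:**
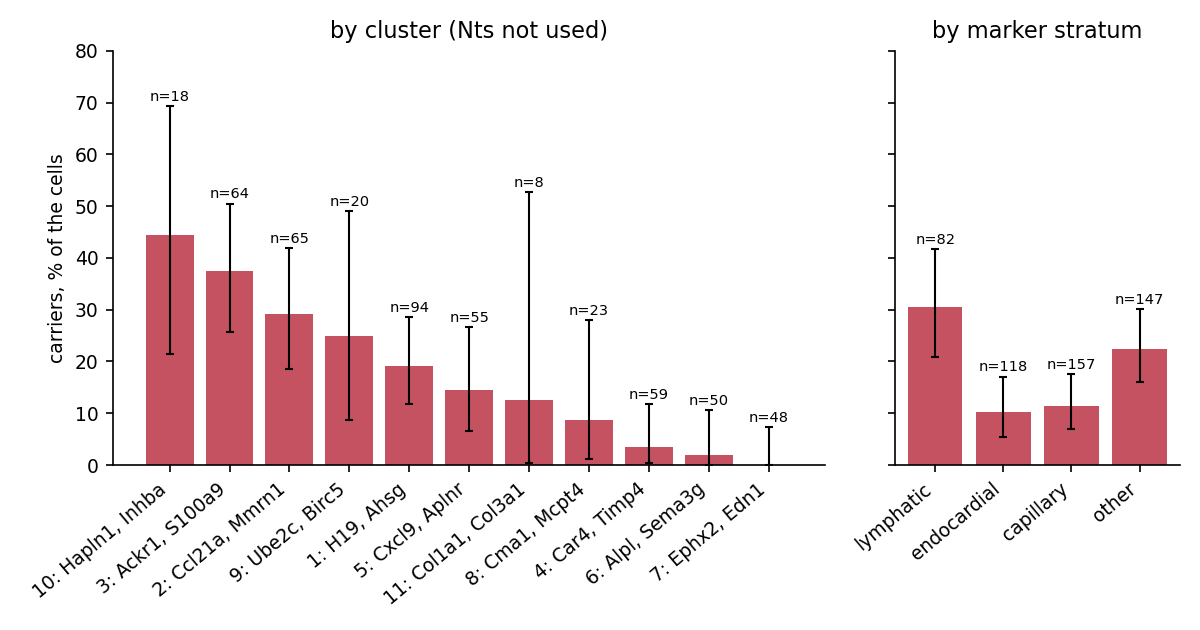
Carriers as a percentage of the cells in each cluster (left) and in each marker stratum (right), with n cells above each bar. Error bars are exact 95% binomial intervals; shares run from 44.4% in cluster 10 to 0% in cluster 7, and from 30.5% in the lymphatic stratum to 10.2% in the endocardial stratum.

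Genes were compared by their summed CPM between carriers and Nts-free cells. The mice and genotypes behind each set are not known. A gene difference between the sets, here or inside a cluster or stratum, therefore cannot be told apart from one between mice or genotypes. A gene was compared when it had at least 20 UMIs over both sets, and it is called higher or lower when the ratio of CPM was at least 2-fold with an exact 95% interval excluding 1. Of 9722 genes, 215 were higher in carriers (2.21%) and 321 were lower (3.30%). The median log2 ratio over all of them was -0.01. The genes of the rule itself were left out.

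Lymphatic genes stood higher in carriers. Of 10 measured lymphatic markers, 4 were higher and 0 lower, with a median log2 ratio of 0.84. Their summed level was 7034 CPM in carriers and 3742 CPM in Nts-free cells, a ratio of 1.88 (1.81 to 1.95). Ccl21a makes up most of this sum, with 2721 of 3859 UMIs in carriers and 5592 of 7656 in Nts-free cells. At least 2 lymphatic UMIs were found in 53.4% of carriers and in 29.8% of Nts-free cells when each cell was thinned to 2500 UMIs.

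Prox1, the transcription factor that sets lymphatic identity, had 72 UMIs in 28 carriers and 180 UMIs in 70 Nts-free cells. Its level was 131 CPM in carriers and 88.0 CPM in Nts-free cells, a ratio of 1.49 (1.12 to 1.97) that did not reach 2-fold. At equal depth, 22.7% of carriers (14.5 to 32.9%) and 10.2% of Nts-free cells (7.33 to 13.8%) had a Prox1 UMI, against 0.419% in the fibroblast gate. With cells thinned to 1500 UMIs the shares were 14.8% of carriers (8.11 to 23.9%) and 9.41% of Nts-free cells (6.64 to 12.8%), and these intervals overlap. The log2 ratio of Prox1 was 0.58. It was 0.25 without the cells called doublets and 0.19 without the 5 cells with the most Nts, with intervals that then include 0.

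Lyve1, a hyaluronan receptor of lymphatic vessels, was higher. It stood at 795 CPM in carriers and at 297 CPM in Nts-free cells, a ratio of 2.67 (2.36 to 3.03), and at equal depth in 26.1% of carriers and 16.9% of Nts-free cells. The macrophage gate also had Lyve1, in 17.5% of its cells at equal depth and at 173 CPM. Mmrn1, a secreted multimerin, stood at 262 CPM in carriers and at 114 CPM in Nts-free cells, a ratio of 2.30 (1.85 to 2.84). Reln, the matrix glycoprotein reelin, stood at 78.4 CPM in 12 carriers and at 29.3 CPM in 30 Nts-free cells, a ratio of 2.67 (1.76 to 4.02). Sema3d, a secreted semaphorin, was the fourth, at a ratio of 2.07 (1.33 to 3.18).

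The other lymphatic genes lay below 2-fold. Flt4, the receptor for the growth factor Vegfc, stood at 142 CPM in carriers and at 84.1 CPM in Nts-free cells, a ratio of 1.69 (1.28 to 2.22). Its equal-depth shares have overlapping intervals, at 15.9% of carriers (8.98 to 25.2%) and 14.2% of Nts-free cells (10.9 to 18.2%). Ccl21a, a chemokine that guides dendritic cells into lymphatics, stood at 4960 CPM in carriers and at 2733 CPM in Nts-free cells, a ratio of 1.81 (1.73 to 1.90), from 20 carriers and 45 Nts-free cells. Pdpn and Tbx1 had intervals that include 1.

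Among 5 genes of lymphatic valves, Cldn11 was higher and none lower. Cldn11, a tight junction claudin, had 26 UMIs in 7 carriers and 11 UMIs in 6 Nts-free cells, a ratio of 8.82 (4.21 to 19.8). In lymphatic-like cluster 2 it had 0 UMIs in carriers and 5 UMIs in 3 Nts-free cells. Cldn11 was detected as a marker in cluster 10, where 1 of 10 lymphatic markers was detected, and not in cluster 2. Foxc2, the transcription factor of valve cells, had a ratio of 0.719 (0.458 to 1.09).

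Inside the lymphatic-like cluster 2 itself, the lymphatic markers did not separate the 19 carriers from the 41 Nts-free cells in the same direction. Prox1 stood at 320 CPM in carriers and at 618 CPM in Nts-free cells, a ratio of 0.518 (0.342 to 0.764). Flt4 had a ratio of 0.885 (0.635 to 1.22) and Lyve1 a ratio of 1.30 (1.12 to 1.50). The 14 carriers with Prox1 and the 15 with Lyve1 in this cluster stand against 28 and 30 carriers with these genes in the whole gate.

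Venous markers gave no common direction. Of 6 measured, 0 were higher and 2 lower, with a median log2 ratio of -0.21. Vwf, the clotting factor stored by venous and endocardial cells, stood at 303 CPM in carriers and at 333 CPM in Nts-free cells, a ratio of 0.909 (0.763 to 1.08). Nr2f2, the transcription factor of venous and lymphatic identity, stood at 219 CPM in carriers and at 188 CPM in Nts-free cells, a ratio of 1.17 (0.941 to 1.43). Both intervals include 1. At equal depth, 22.7% of carriers and 30.6% of Nts-free cells had Vwf, and 39.8% of carriers and 29.3% of Nts-free cells had Nr2f2, a gene that 9.05% of the fibroblast gate also had. With cells thinned to 1500 UMIs, Nr2f2 was in 25% of carriers (16.4 to 35.4%) and 21.2% of Nts-free cells (17.2 to 25.7%).

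The venous genes that were lower were Selp and Ackr1. Selp, the adhesion molecule P-selectin, stood at 62.0 CPM in carriers and at 132 CPM in Nts-free cells, 2.14-fold lower (1.49 to 3.15). Ackr1, the chemokine-binding receptor of venules, had 3 UMIs in 2 carriers and 66 UMIs in 12 Nts-free cells, 5.90-fold lower (1.93 to 29.3). The summed venous list was 1298 CPM in carriers and 1485 CPM in Nts-free cells, a ratio of 0.874 (0.804 to 0.948) that turned to 1.21 when all cells were thinned to 2500 UMIs before the rule.

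Cluster 3, which held more carriers than any other cluster, shows the same genes lower. Its 24 carriers had 2 Ackr1 UMIs in 1 cell and its 28 Nts-free cells had 64 in 11 cells, 35.3-fold lower in carriers (9.37 to 298). Selp stood at 139 CPM in carriers, 86.4% of it in 1 cell, and at 976 CPM in Nts-free cells, 7.01-fold lower (4.45 to 11.6). Nr2f2 stood at 285 CPM in carriers and at 286 CPM in Nts-free cells. Vwf stood at 468 CPM in 7 carriers and at 795 CPM in 20 Nts-free cells, a ratio of 0.589 (0.433 to 0.796). The neutrophil genes S100a9 and S100a8 were also lower in these carriers, 115-fold and 99.8-fold, and 49.7% of the Nts-free S100a9 UMIs were in 1 cell. The part of neutrophil RNA in this cluster's contrast was not tested.

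Some capillary markers were lower in carriers and none was higher. Of 12 measured, 0 were higher and 4 lower, with a median log2 ratio of -0.47. Gpihbp1, which holds lipoprotein lipase on the capillary wall, stood at 355 CPM in carriers and at 725 CPM in Nts-free cells, 2.04-fold lower (1.76 to 2.38). At equal depth, 31.8% of carriers (22.3 to 42.6%) and 44.4% of Nts-free cells (39.2 to 49.6%) had a Gpihbp1 UMI, against 0.240% in the fibroblast gate. Rgcc was 3.11-fold lower (2.42 to 4.05) and Btnl9 4.88-fold lower (2.67 to 9.92). Cd300lg was 2.05-fold lower (1.52 to 2.82).

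The sum of the capillary list does not follow these members. It was 16275 CPM in carriers and 14985 CPM in Nts-free cells, a ratio of 1.09 (1.06 to 1.11), while its median ratio was below 1, and under 4 of the alternatives the sum was itself lower in carriers. Fabp4, a fatty acid binding protein, makes up most of the sum, with 7840 UMIs in carriers and 24358 in Nts-free cells, a ratio of 1.20 (1.17 to 1.23). Cd36, a fatty acid receptor, stood at 365 CPM in carriers and at 651 CPM in Nts-free cells, 1.79-fold lower (1.54 to 2.08). Without thinning, 39 of the 88 carriers (44.3%) and 187 of the 372 Nts-free cells (50.3%) had a Gpihbp1 UMI. In cluster 5, 7 of the 8 carriers had one, for 73 UMIs. Such a UMI does not mark capillary cells alone, since 34 of the 65 cells of lymphatic-like cluster 2 had one.

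The summed endocardial markers were lower in carriers, with Hapln1, the link protein of hyaluronan matrix, higher. Of 6 measured, 1 was higher and 3 lower, with a median log2 ratio of -0.69. Npr3 stood at 228 CPM in 22 carriers and at 483 CPM in 113 Nts-free cells, 2.12-fold lower (1.76 to 2.57). Its shares at equal depth depended on the depth chosen. They were 23.9% of carriers (15.4 to 34.1%) and 26.9% of Nts-free cells (22.4 to 31.7%) at 2500 UMIs, and 10.2% of carriers (4.78 to 18.5%) and 24.5% of Nts-free cells (20.2 to 29.2%) at 1500 UMIs, where the intervals do not overlap. Cytl1, a secreted protein, was 2.55-fold lower (2.08 to 3.16), and Smoc1, a matrix protein, 3.64-fold lower (2.19 to 6.48). Hapln1 had 22 UMIs in 6 carriers and 24 UMIs in 4 Nts-free cells, a ratio of 3.42 (1.83 to 6.37). The list sum was 658 CPM in carriers and 1278 CPM in Nts-free cells, 1.94-fold lower (1.74 to 2.17).

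Arterial genes were the group with the most members lower. Of 10 measured, 0 were higher and 6 lower, with a median log2 ratio of -1.39. Gja4, a gap junction connexin, had 14 UMIs in 9 carriers and 530 UMIs in 113 Nts-free cells, 10.2-fold lower (6.00 to 18.7). Gja5, the other arterial connexin, had 0 UMIs in carriers and 67 UMIs in 26 Nts-free cells. That is at least 4.74-fold lower by the exact interval, and 5.99-fold lower when the count of 0 is set to 3 over the group. Sema3g had 2 UMIs in carriers and 112 in Nts-free cells, and Fbln5, an elastic fibre protein, was 6.11-fold lower (4.19 to 9.27). Stmn2 ran the other way without reaching 2-fold, at 591 CPM in carriers and 369 CPM in Nts-free cells, a ratio of 1.60 (1.40 to 1.83).

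**Figure D3:**
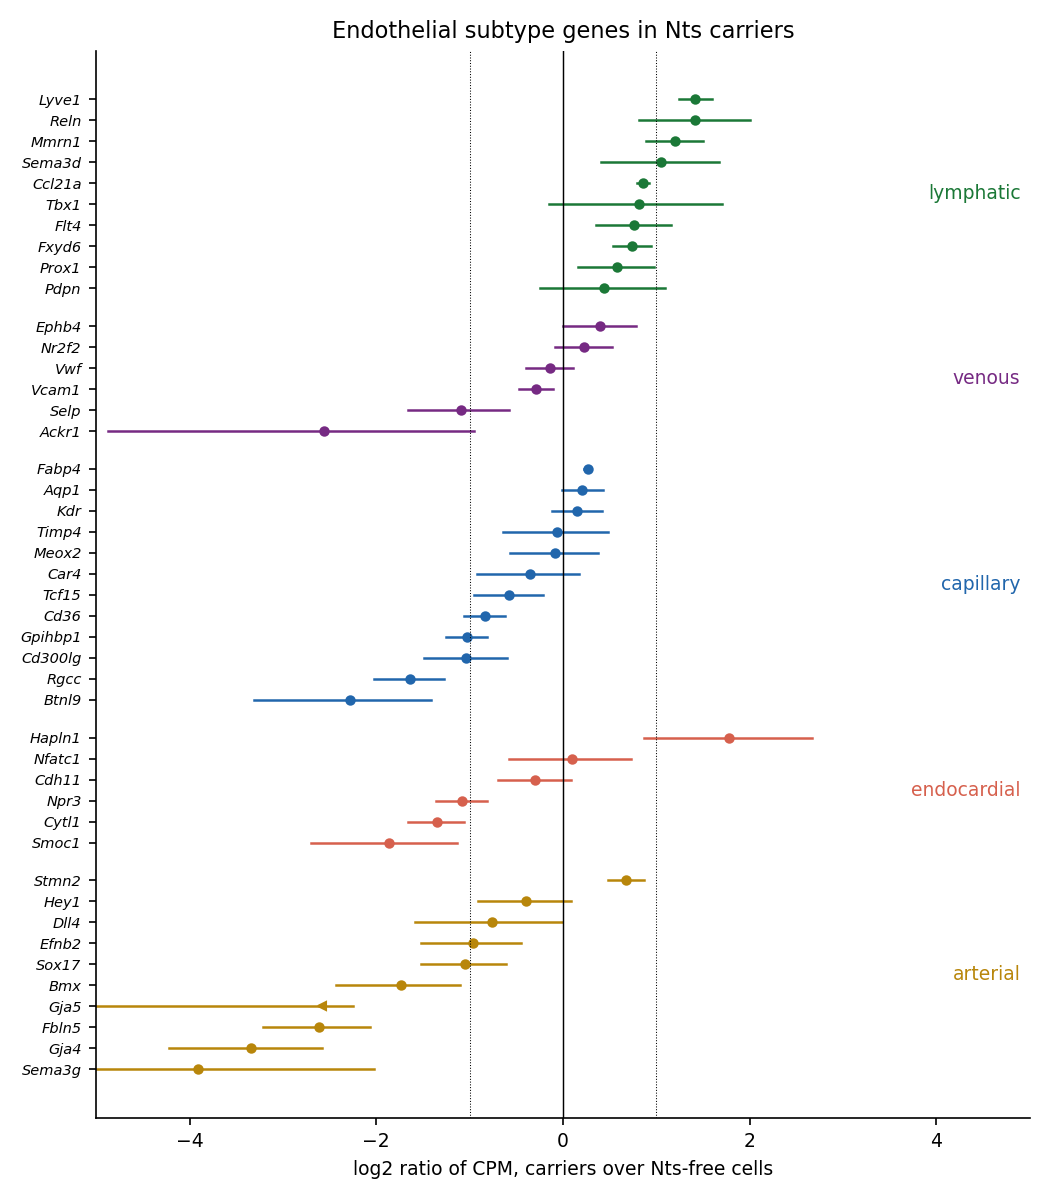
Log2 ratio of summed CPM, carriers over Nts-free cells, for each measured marker of 5 endothelial lists. Points are ratios and lines exact 95% counting intervals, cut at -5. The triangle for Gja5 is the ratio with 3 UMIs set for a count of 0, and dotted lines mark 2-fold. Lymphatic genes lie to the right of 0 and 9 of 10 arterial genes to the left.

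**Figure D4:**
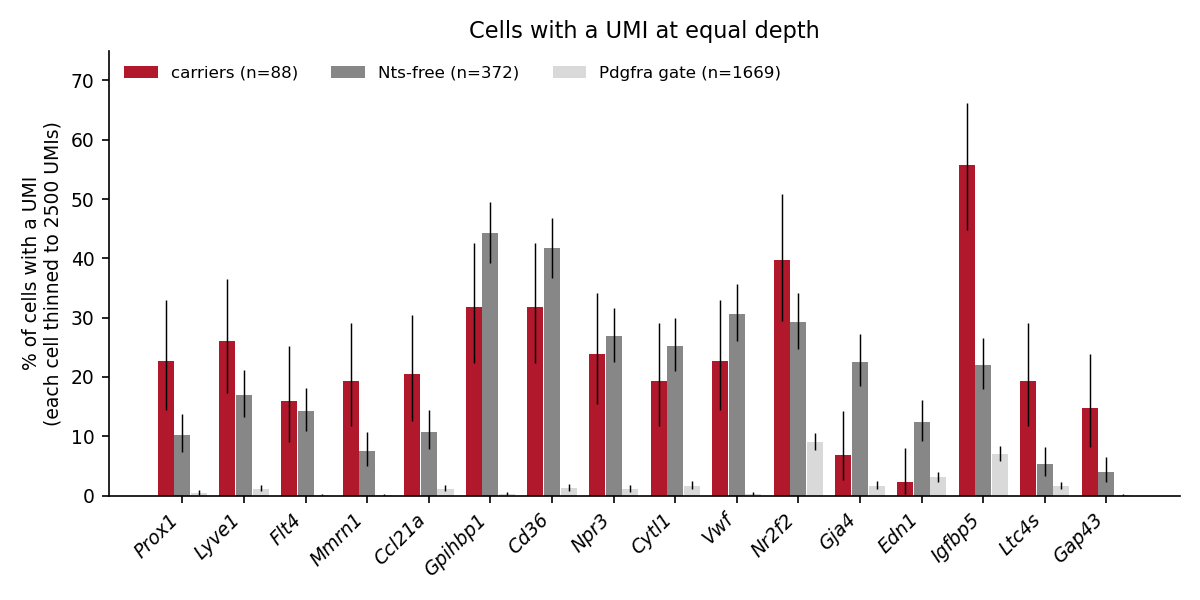
Percentage of cells with at least 1 UMI of a gene after each cell was thinned to 2500 UMIs, in carriers, Nts-free cells and the fibroblast (Pdgfra) gate. Error bars are exact 95% binomial intervals; Igfbp5 shows the widest gap, 55.7% of carriers against 22.0% of Nts-free cells.

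Single carriers often held markers of more than 1 list. Of the 28 carriers with Prox1, 16 also had Lyve1, 19 had Nr2f2, 11 had Gpihbp1, 8 had Npr3 and 8 had Vwf. Of the 70 Nts-free cells with Prox1, 40 had Lyve1, 50 had Nr2f2, 27 had Gpihbp1, 24 had Npr3 and 24 had Vwf. Among cells with Npr3, 14 of 22 carriers and 99 of 113 Nts-free cells also had Vwf. With Nr2f2 the counts were 8 of 22 carriers and 81 of 113 Nts-free cells.

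The carriers' markers were also counted by cluster. In cluster 1, 16 of 18 carriers had Npr3, 14 had Vwf and 4 had Nr2f2. In cluster 2, 14 of 19 had Prox1, 16 had Nr2f2 and 0 had Vwf. In cluster 3, 17 of 24 had Nr2f2, 11 had Gpihbp1, 7 had Vwf and 1 had Prox1. In cluster 10, 3 of 8 had Prox1, 2 had Npr3 and 0 had Gpihbp1 or Lyve1.

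Igfbp5, a secreted binding protein of insulin-like growth factors, was the gene most widely shared among those with the largest ratios. It had 1587 UMIs in 57 carriers and 1945 UMIs in 106 Nts-free cells. That is 2893 CPM in carriers and 951 CPM in Nts-free cells, a ratio of 3.04 (2.85 to 3.25). At equal depth it was in 55.7% of carriers (44.7 to 66.3%) and 22.0% of Nts-free cells (17.9 to 26.6%), against 6.95% in the fibroblast gate. The cells with only 1 or 2 Nts UMIs had this gene at 2485 CPM and in 54.5% of cells (38.8 to 69.6%). Its direction held in all 14 alternatives computed for it, with log2 ratios from 1.49 to 2.07.

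Igfbp5 did not differ equally everywhere. It was 3.42-fold higher in endocardial carriers (3.02 to 3.87), with 49.9% of their UMIs in 1 cell. These 12 carriers were all in cluster 1, as were 53 of the 95 Nts-free cells of the stratum, and 37 others were in cluster 7. Inside cluster 1 the ratio was 2.01 (1.79 to 2.24), in 14 of 18 carriers and 41 of 67 Nts-free cells, and 1.82 without the top cell on each side. It was 3.67-fold higher among the rest (3.24 to 4.15), in 29 of 33 carriers and 22 of 98 Nts-free cells. In the capillary stratum it was 6.07-fold higher, with 94.9% of the carriers' UMIs in 1 cell. In the lymphatic stratum the ratio was 1.74 (1.54 to 1.97). Inside cluster 2 it was lower in carriers, at 1774 CPM, against 2654 CPM in Nts-free cells, a ratio of 0.668 (0.562 to 0.791). Inside cluster 3 it was 2.57-fold higher (2.18 to 3.05), in 19 of 24 carriers and 9 of 28 Nts-free cells.

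**Figure D5:**
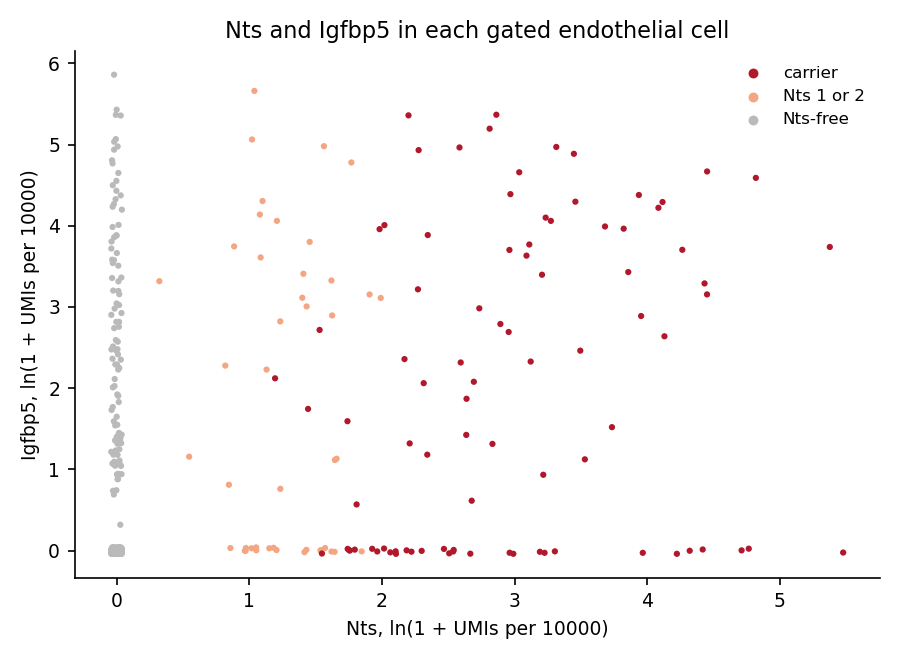
Igfbp5 against Nts in each of the 504 gated cells, both as the natural log of 1 plus UMIs per 10000, with a small jitter. Carriers, cells with 1 or 2 Nts UMIs and Nts-free cells are coloured apart; 57 of 88 carriers and 106 of 372 Nts-free cells lie above the row of cells without Igfbp5.

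Ltc4s and Gap43 followed Igfbp5 in breadth. Ltc4s, the synthase of cysteinyl leukotrienes, had 81 UMIs in 27 carriers and 55 UMIs in 39 Nts-free cells, a ratio of 5.49 (3.85 to 7.88). In the macrophage gate Ltc4s stood at 246 CPM and in 26.4% of cells at equal depth, and in carriers at 148 CPM and in 19.3%. Cluster 3 held most of the carriers' Ltc4s, with 63 UMIs in 15 of 24 carriers and 9 UMIs in 6 of 28 Nts-free cells. Gap43, a growth-cone protein of neurons, had 74 UMIs in 17 carriers and 51 UMIs in 21 Nts-free cells, a ratio of 5.41 (3.74 to 7.89). Gap43 lay in the lymphatic cells: cluster 2 had 56 UMIs in 12 of 19 carriers and 37 UMIs in 15 of 41 Nts-free cells, a ratio of 3.06 (1.99 to 4.77).

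The other genes at the top of the ratio list rest on few cells. Edil3, an integrin ligand, had 17 UMIs in 7 carriers and 5 UMIs in 4 Nts-free cells, and Cyp26b1, which breaks down retinoic acid, had 16 UMIs in 4 carriers and 5 UMIs in 5 Nts-free cells. The division genes Pbk, Ube2c and Prc1 came from 5, 6 and 6 carriers. For Clec4b1, Ifit1 and Gdf15, 1 carrier held 100%, 92.2% and 71.8% of the carriers' UMIs. Without the top cell on each side, the ratio of Ifit1 was 0.444 and that of Gdf15 1.35.

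The genes lowest in carriers include 2 secreted ligands, arterial genes and genes of other cell types. Edn1, the vasoconstrictor endothelin, had 6 UMIs in 3 carriers and 498 UMIs in 62 Nts-free cells, 22.3-fold lower (10.2 to 60.9). Nrg1, the growth factor neuregulin, had 3 UMIs in 2 carriers and 243 UMIs in 63 Nts-free cells, 21.7-fold lower (7.34 to 106). Alpl, the tissue alkaline phosphatase, had 0 UMIs in carriers and 99 UMIs in 34 Nts-free cells, at least 7.06-fold lower. Gkn3, an arterial gene in mouse, had 0 UMIs in carriers and 86 in Nts-free cells, at least 6.12-fold lower. Edn1 and Nrg1 lead cluster 7 and Alpl and Gkn3 lead cluster 6, where 0 and 1 carriers were found.

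Inside cluster 1, which holds most of the carriers with Npr3, Edn1 had a ratio of 0.796 (0.268 to 1.98). Nrg1 had 0 UMIs in 18 carriers and 48 UMIs in 20 of 67 Nts-free cells, at least 3.63-fold lower. Npr3 itself stood at 1068 CPM in cluster 1 carriers and at 1507 CPM in its Nts-free cells, a ratio of 0.709 (0.573 to 0.871). Nr2f2 was 4.18-fold lower (1.96 to 10.7), in 4 of 18 carriers and 47 of 67 Nts-free cells. Vwf had a ratio of 0.992 (0.766 to 1.27). Of 3968 genes compared in this cluster, 2.82% were higher and 2.90% lower.

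Other lows name cells outside the endothelium. Cma1 and Cpa3, mast cell proteases, had 0 UMIs in carriers, and 1 Nts-free cell held 99.4% of the Cma1 and 100% of the Cpa3. Rgs5, a pericyte gene, had 0 UMIs in carriers and 162 in 11 Nts-free cells, 48.1% of them in 1 cell. S100a9 and S100a8, neutrophil genes, were 10.1-fold (5.71 to 19.6) and 11.8-fold (5.35 to 32.4) lower. Gzma, a granzyme of lymphocytes, had 1 UMI in carriers and 101 in Nts-free cells.

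No receptor of neurotensin reached the UMI minimum, and genes of peptide processing were called in both directions. Ntsr1 and Ntsr2 had 0 UMIs in both sets, with exact intervals that reach 6.72 CPM in carriers and 1.80 CPM in Nts-free cells. Sort1 had 0 UMIs in carriers and 18 UMIs in 14 Nts-free cells, under the minimum of 20. Of 7 measured genes of peptide processing, Pcsk6 was higher and Pcsk5 lower. Pcsk6, a proprotein convertase, had 53 UMIs in 21 carriers and 72 UMIs in 46 Nts-free cells, a ratio of 2.75 (1.89 to 3.97). Pcsk5, another convertase, had 3 UMIs in carriers and 59 in Nts-free cells, 5.27-fold lower (1.72 to 26.3). The convertases of neuroendocrine granules, Pcsk1 and Pcsk2, had 0 UMIs in both sets. Cpe and Pam, which trim and amidate peptides, had ratios of 0.565 (0.486 to 0.654) and 0.630 (0.519 to 0.759).

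Granule proteins were nearly absent, and none of 6 reached 20 UMIs. Their sum was 2 UMIs in carriers and 14 in Nts-free cells, where Chga gave 9. Of 5 measured peptidases that can cut neurotensin, 0 were called in either direction. Among 5 measured peptide ligands, Edn1 was lower. Apln had a ratio of 1.24 (0.698 to 2.12) and Adm one of 0.584 (0.334 to 0.964).

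Among signalling genes of lymphatic growth, 2 of 11 were higher and 1 lower. Ramp3, a partner of the adrenomedullin receptor, had 63 UMIs in 31 carriers and 92 UMIs in 58 Nts-free cells, a ratio of 2.55 (1.82 to 3.56). Angpt2, an angiopoietin, had a ratio of 2.17 (1.14 to 3.99). Nrp1, a co-receptor for Vegf, stood at 304 CPM in carriers and at 662 CPM in Nts-free cells, 2.17-fold lower (1.85 to 2.57). Its relative Nrp2 had a ratio of 1.82 (1.53 to 2.16), and Vegfc one of 1.61 (1.24 to 2.09).

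Chemokines and adhesion genes were called both ways, with 2 of 13 higher and 3 lower. Sele, the adhesion molecule E-selectin, had 154 UMIs in 19 carriers and 262 UMIs in 36 Nts-free cells, a ratio of 2.19 (1.78 to 2.69). Inside cluster 3, with 93 of these carrier UMIs and 130 of the Nts-free ones, Sele was lower in carriers, a ratio of 0.649 (0.492 to 0.854). Inside cluster 1 the ratio was 2.05 (1.33 to 3.11). Ackr2, a scavenger of inflammatory chemokines, had 13 UMIs in 9 carriers and 14 UMIs in 10 Nts-free cells, a ratio of 3.46 (1.50 to 7.94). Cxcl12, the chemokine that retains leukocytes, stood at 146 CPM in carriers and at 579 CPM in Nts-free cells, 3.97-fold lower (3.17 to 5.05). Ackr4 was 2.61-fold lower (1.44 to 5.20).

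In the Tgfb and Bmp list, 2 of 13 were higher and 2 lower. Bmp2 had 47 UMIs in 14 carriers and 58 UMIs in 18 Nts-free cells, a ratio of 3.02 (2.01 to 4.52), with 28 UMIs in 8 carriers of cluster 3. Fst, the activin antagonist follistatin, had 16 UMIs in 2 carriers and 9 UMIs in 5 Nts-free cells. Bmp6 was 2.47-fold lower (1.63 to 3.89) and Bmp4 2.38-fold lower (1.56 to 3.80).

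Division genes stood higher in a small number of cells. Of 12 measured, 7 were higher and 0 lower, with a median log2 ratio of 1.22. At least 2 such UMIs were found in 11.4% of carriers (5.59 to 19.9%) and 6.99% of Nts-free cells (4.62 to 10.1%) at equal depth. Ube2c had 55 UMIs in 6 carriers and 42 UMIs in 10 Nts-free cells, and Mki67 had 28 UMIs in 8 carriers and 48 UMIs in 17 Nts-free cells. Without the top cell on each side, the ratio of Mki67 was 1.69 and that of Rrm2 1.21.

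Immediate early genes, among them the Fos and Jun subunits of AP-1, gave no call. Of 11 measured, 0 were higher and 0 lower, and the list ratio was 0.956 (0.937 to 0.975). Fos stood at 3317 CPM in carriers and at 4230 CPM in Nts-free cells, a ratio of 0.784 (0.745 to 0.825). Jun had a ratio of 0.983 (0.933 to 1.04) and Atf3 one of 1.21 (1.12 to 1.30). In cluster 2 alone Fos was 3.11-fold lower in carriers (2.71 to 3.58), in 17 of 19 carriers and 40 of 41 Nts-free cells.

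The remaining lists held few calls. Of 6 flow-response genes, Cyp1b1 was lower, 2.90-fold (1.26 to 8.20), and Klf2 had a ratio of 1.01 (0.961 to 1.06). Of 9 genes of angiogenic activation, Plvap, which builds the diaphragms of fenestrae, was lower, at 474 CPM in carriers and 1202 CPM in Nts-free cells. Of 8 guidance genes, Unc5b was lower, 2.22-fold (1.18 to 4.60). Of 9 mesenchymal genes, Fn1 was 2.74-fold lower (2.20 to 3.46) and S100a4 2.02-fold lower (1.25 to 3.45). Of 8 interferon genes, 1 was higher (Ifit1, from 1 cell) and 2 lower. Of 10 general endothelial genes, Clec14a was 2.12-fold lower (1.64 to 2.80).

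Class II genes rested largely on 1 cell. H2-Ab1 and H2-Eb1 were higher among 6 measured, at ratios of 2.26 (1.85 to 2.76) and 2.07 (1.74 to 2.45). In each, 1 carrier held most of the UMIs, 57.6% for H2-Ab1 and 61.6% for H2-Eb1. The carrier with the most UMIs of Cd74, the class II invariant chain, was a cluster 8 cell called a doublet, with 454 Cd74, 70 Nts and 5 Ptprc UMIs. Without the top cell on each side, the ratios were 1.23 and 1.16.

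Most lists of other cells' markers summed lower in carriers, and the platelet list higher. Fibroblast markers summed to 3137 CPM in carriers and 3969 CPM in Nts-free cells, with 1 of 8 lower. Neutrophil markers summed to 38.3 CPM in carriers and 374 CPM in Nts-free cells, with 3 of 3 lower. Pericyte markers summed to 23.7 CPM in carriers and 104 CPM in Nts-free cells, smooth muscle markers to 27.3 CPM in carriers and 152 CPM in Nts-free cells, and lymphocyte markers to 74.7 CPM in carriers and 119 CPM in Nts-free cells. Macrophage markers summed to 299 CPM in carriers and 369 CPM in Nts-free cells, with Mrc1, which lymphatic cells also express, higher. Platelet markers, 1 of 2 higher, summed to 91.1 CPM in carriers and 43.0 CPM in Nts-free cells. Their part in the gene differences was not tested.

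Within the marker strata, carriers and Nts-free cells were compared again. In the lymphatic stratum, 102 of 3978 genes were higher in the 25 carriers (2.56%) and 137 lower (3.44%) than in the 51 Nts-free cells. The 6 that led were Lgals3, Clec4b1, Cd74 and 3 class II genes, and 77.3% to 100% of their UMIs lay in 1 carrier. Cluster 2 held 16 of these carriers and 39 of these Nts-free cells, and the others lay in different clusters, among them 2 carriers in cluster 8 and 3 Nts-free cells in cluster 7. Lower in the stratum was Edn1, with 0 UMIs in carriers and 35 in Nts-free cells, 51.4% of them in 1 cell. Inside cluster 2 Edn1 had 0 UMIs in carriers and 1 in Nts-free cells. Also lower was Ptgs2, a prostaglandin synthase, with 1 UMI in carriers and 50 in Nts-free cells. Ccn2, a matricellular growth factor, was 8.32-fold lower (3.90 to 21.2), and Isg15, an interferon-induced protein, 4.83-fold lower (2.83 to 8.87).

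In the endocardial stratum, 142 of 5219 genes were higher in the 12 carriers (2.72%) and 148 lower (2.84%) than in the 95 Nts-free cells. Adh6b, an alcohol dehydrogenase, had 25 UMIs in 5 carriers and 17 UMIs in 10 Nts-free cells, a ratio of 11.7 (6.09 to 23.2). Enpp2, which makes lysophosphatidic acid, had 14 UMIs in 7 carriers and 13 UMIs in 11 Nts-free cells, a ratio of 8.60 (3.75 to 19.9). Mgll, a monoacylglycerol lipase, had 21 UMIs in 5 carriers and 23 UMIs in 11 Nts-free cells. Nupr1, a stress-induced nuclear protein, had 1 UMI in carriers and 337 UMIs in 46 Nts-free cells, 42.2-fold lower (7.52 to 1672). Nrg1 had 0 UMIs in carriers and 193 UMIs in 49 Nts-free cells, at least 6.49-fold lower. Of the Nts-free cells compared here, those of cluster 7 have no carriers beside them.

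In the capillary stratum, 134 of 5160 genes were higher in the 18 carriers (2.60%) and 84 lower (1.63%) than in the 128 Nts-free cells. The clusters differed: cluster 3 held 6 of these carriers and 10 of these Nts-free cells, cluster 4 held 2 carriers and 56 Nts-free cells, and cluster 5 held 7 carriers and 39 Nts-free cells. Its part in the stratum's gene differences was not tested. Ltc4s had 29 UMIs in 8 carriers and 18 UMIs in 15 Nts-free cells, a ratio of 8.59 (4.61 to 16.4). Hs3st1, a heparan sulfate sulfotransferase, had 23 UMIs in 7 carriers and 18 UMIs in 12 Nts-free cells, a ratio of 6.81 (3.52 to 13.4). Prss23, a serine protease, had 24 UMIs in 6 carriers and 21 UMIs in 8 Nts-free cells, a ratio of 6.09 (3.25 to 11.5). Depp1 was 3.66-fold lower (2.31 to 6.15), in 6 carriers and 65 Nts-free cells. Carriers were deeper in this stratum, at a median of 6354 UMIs per cell, against 4054 in Nts-free cells.

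Among cells of no stratum, 184 of 5789 genes were higher in the 33 carriers (3.18%) and 340 lower (5.87%) than in the 98 Nts-free cells. Here too the clusters differed, since cluster 3 held 17 of these carriers and 16 of these Nts-free cells, and arterial-like cluster 6 held 0 carriers and 34 Nts-free cells. Col13a1, a transmembrane collagen, had 19 UMIs in 10 carriers and 6 UMIs in 6 Nts-free cells, a ratio of 8.56 (3.29 to 26.2). Abi3bp, a matrix protein, had 40 UMIs in 12 carriers and 21 UMIs in 12 Nts-free cells, a ratio of 5.15 (2.96 to 9.19). Fabp5, a fatty acid binding protein, was 2.89-fold higher (2.56 to 3.28), with 38.8% of the carriers' UMIs in 1 cell. Sema3g, which is among the leading genes of cluster 6, had 0 UMIs in carriers and 106 in Nts-free cells, and the tight junction gene Cldn5 had 3 UMIs in carriers and 201 in Nts-free cells.

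Some of the genes higher in carriers were shared between strata. Over pairs of strata, 4 to 16 genes were higher in both, which is 3.81% to 13.1% of either list among genes compared in both. Of all genes compared in a stratum, 2.56% (lymphatic) to 3.18% (the rest) were higher in its carriers. The overlap was not tested. Igfbp5, Iigp1 and Car8 were each higher in 3 of the 4 strata and were named after their values were seen. Car8, a carbonic anhydrase-related protein, had ratios of 3.85 (2.37 to 6.42) in the lymphatic stratum, 2.54 (1.91 to 3.34) in the endocardial stratum, 2.02 (1.54 to 2.63) in the rest and 1.55 (1.12 to 2.11) in the capillary stratum. Iigp1, an interferon-induced GTPase, had 1 cell hold 52.6% of its carrier UMIs in the lymphatic stratum, 91.7% in the endocardial stratum and 73.1% in the capillary stratum.

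In the lymphatic-like cluster 2, 2.44% of 2996 genes were higher in carriers and 2.70% lower. Creb5, a transcription factor, had 25 UMIs in 8 carriers and 10 UMIs in 8 Nts-free cells, a ratio of 5.06 (2.35 to 11.8). Mast4, a kinase, had 15 UMIs in 8 carriers and 5 UMIs in 5 Nts-free cells. Abca1, a lipid exporter, had 1 UMI in carriers and 26 UMIs in 16 Nts-free cells, 12.9-fold lower (2.11 to 527). Gpihbp1 was 2.28-fold lower (1.41 to 3.85).

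In cluster 3, 4.37% of 2791 genes were higher in carriers and 4.19% lower. Tspan2, a tetraspanin, had 21 UMIs in 13 carriers and 2 UMIs in 2 Nts-free cells, and the chaperone Cryab had 36 UMIs in 14 carriers and 6 UMIs in 4 Nts-free cells. Lrg1, a leucine-rich glycoprotein, was 19.0-fold lower (11.5 to 33.7), in 5 of 24 carriers and 18 of 28 Nts-free cells.

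Carriers of the lymphatic and endocardial strata were also set against each other. Between the 25 lymphatic and the 12 endocardial carriers, 220 of 2272 genes were higher in the lymphatic ones (9.68%) and 185 lower (8.14%). Mmrn1 and Npr3 belong to the rule that made the strata. Ccl21a had 2691 UMIs in 16 lymphatic carriers and 0 in endocardial carriers, at least 353-fold higher. Maf, a transcription factor, had 89 UMIs in 15 lymphatic carriers and 0 in endocardial ones, and Prss23 had 92 UMIs in lymphatic carriers and 0 in endocardial ones. Gap43 had 65 UMIs in 12 lymphatic carriers and 0 in endocardial ones. Vwf had 11 UMIs in 5 lymphatic carriers and 74 UMIs in 9 endocardial carriers, 13.9-fold lower (7.33 to 29.0). Ahsg, a plasma glycoprotein gene, had 8 UMIs in 3 lymphatic carriers and 64 UMIs in 10 endocardial ones.

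The genes whose pattern was most like Nts across the 504 cells were sought by Pearson correlation of the log of counts per 10000, among genes with a UMI in at least 20 of the cells. These cells share a library and differ in depth, so the values describe it only. Igfbp5 was first at 0.35, and Vim, Cd9, Anxa2, Sh3gl3 and Nsg1 followed at 0.24 to 0.27. Zfyve26, Add3, Fxyd6 and Ltc4s had 0.22, and Fxyd6 is on the lymphatic list. Of 7 other subtype markers looked at, the values were 0.17 for Lyve1, 0.11 for Flt4, 0.10 for Prox1, 0.08 for Nr2f2, -0.07 for Vwf, -0.08 for Npr3 and -0.13 for Gpihbp1. Within the 82 cells of the lymphatic stratum Cant1 was first at 0.41, and within the 118 cells of the endocardial stratum Ldb2 and Enpp2, at 0.39 each. Neither Igfbp5 nor a marker of the list used above was among the 5 most alike in the lymphatic stratum.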

How the data were processed

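The authors deposited a matrix of whole-number UMI counts per gene and barcode without normalization, 56954 features by 9369 barcodes, from a droplet-based 3′-end library, per the labels' protocols. Per the submitters' processing notes, the tools were STARsolo and Scanpy and the genome was mm10; no version is given there, and the rule that called cells is not given in the sources used here. Depth ran from 2567 to 42567 UMIs per barcode (median 6663), and 69993559 in all. No barcode was removed. Scrublet in scanpy 1.11.5 called 357 doublets, which were kept and left out as an alternative.

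From the counts, UMIs were summed over carriers and over Nts-free cells and scaled to CPM, with exact Poisson intervals for levels, exact (Clopper-Pearson) binomial intervals for shares, and the exact binomial interval of a pair of sums for ratios. A count of 0 was set to 3 for point ratios and calls. Folds given as "at least" are the bounds of the exact interval. Shares at equal depth used cells thinned to 2500 UMIs, or to 1500 where stated. Clusters came from Leiden at resolution 1 on 20 principal components and 15 neighbours, and leading genes from ratios with 10 CPM added. The code of the comparison was run on simulated Poisson sums per gene. These held no spread between cells, so the run does not bear on sums that rest on few cells. Software was matplotlib 3.10.9, igraph 0.11.9, pandas 2.3.3, anndata 0.12.19, scipy 1.17.1, scikit-learn 1.9.0, numpy 2.4.6 and Python 3.11.15.

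Named genes were the 12 each way with the interval bound nearest 1 farthest from it, 6 each way within a stratum, 8 each way between carriers, at most 2 a direction per list, and fixed markers; not all are printed. Genes named within clusters, and list genes that were not called, were chosen after their values were seen. The CreERT2 feature was not interpreted, so that no genotype was inferred. The members and gene lists were chosen with earlier results of these data known.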

Additional observations from a re-analysis of the deposited data

How the results depend on the processing

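With 1 pooled library no leave-one-out over samples exists. No paired analysis was possible because the labels give 1 gene expression library and no replicate pairs. There were 18 alternatives, 2 of them added after seeing the data. In those that recomputed the list ratios, the endocardial and arterial ratios stayed below 1 and the lymphatic ratio above 1; the causes of the shifts below were not tested unless the alternative changes the cells counted. An endothelial minimum of 2 UMIs gave list ratios of 1.99 (lymphatic) and 1.17 (capillary), and one of 5 gave 2.11 (lymphatic). Requiring Ptprc and Pdgfrb at 0 and little Col1a1 gave 1.68 (lymphatic), leaving out called doublets 1.78, and leaving out the clusters led by Cma1 and Col1a1, an added alternative, 1.72. Carriers defined by 1 Nts UMI gave 1.57 (lymphatic), 0.581 (endocardial) and 0.688 (arterial), with carrier shares of 19.5% (endocardial stratum), 18.5% (capillary) and 33.3% (rest). A minimum of 5 gave 0.939 (capillary, now below 1), 0.675 (arterial) and a share of 6.37% (capillary). A minimum of 10 left 39 carriers, with ratios of 2.40 (lymphatic), 0.801 (capillary, below 1) and 0.691 (endocardial), and shares of 15.9% (lymphatic), 5.08% (endocardial), 1.91% (capillary) and 11.6% (rest). Thinning all cells to 2500 UMIs left 54 carriers, 163 genes lower, ratios of 1.53 (lymphatic), 0.738 (capillary, below 1), 0.703 (endocardial), 1.21 (venous, above 1) and 0.672 (arterial), and shares of 15.4% (lymphatic), 4.35% (capillary) and 15.8% (rest). Cells of at least 4000 UMIs gave 2.11 (lymphatic), 1.39 (capillary) and a share of 17.6% (capillary). Weighting cells equally gave 1.70 (lymphatic) and 0.867 (capillary, below 1). Without a UMI minimum 332 genes were higher, and with one of 50, 93 were. Among single genes called higher or lower, the log2 ratio turned for Ifit1 (-1.24) and Prc1 (-0.38) at a minimum of 10 Nts UMIs, for Gdf15 (-0.69) after thinning, and for Ifit1 (-1.17) without the top cell on each side. Vwf, which was not called, kept its sign in 11 of 14 alternatives, with log2 ratios from -0.36 to 0.04, and the sign for Sort1, with 0 UMIs in carriers, depends on the 3 UMIs set for a count of 0. In all, 337 single-gene values stayed within their counting interval and 83 moved outside it with the same sign or without a call. Depth limits every share, since shallow cells miss low transcripts.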

Other observations

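Outside the endothelial rule, 12 barcodes had at least 3 Nts UMIs, between 3 and 39 with a median of 9. Of these, 10 had Pdgfra and 2 had Csf1r beside at least 3 endothelial UMIs, 1 barcode counting under both, and 1 had fewer than 3 endothelial UMIs. Their median depth was 13109.5 UMIs, and 6 of the 12 were called doublets. Prox1 was present in 4, Npr3 in 5 and Vwf in 8 of them.

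The 44 gated cells with 1 or 2 Nts UMIs did not follow the carriers in every gene. At equal depth Prox1 was in 22.7% of carriers and in 4.55% of these cells (0.555 to 15.5%). Edn1 stood at 10.9 CPM in carriers and at 310 CPM in these cells (247 to 384 CPM). At equal depth Nr2f2 was in 39.8% of carriers and 52.3% of these cells (36.7 to 67.5%), and Igfbp5 in 55.7% of carriers and 54.5% of these cells.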
